A study of Mus musculus with 620 samples.

Results

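The genes described here encode the eukaryotic translation initiation factors of the mouse. They were taken by symbol, as every gene whose name starts with Eif followed by a digit between 1 and 6, without the Eif2ak kinases, the Eif4ebp binding proteins and pseudogenes. The rule found 50 of 40840 genes in the ST and YA count tables and 47 of 24850 genes in the LT table. By role, 5 belong to eIF1 and eIF1A, 7 to eIF2 and its partners, 5 to eIF2B, 14 to eIF3, 14 to eIF4 and 5 to eIF5 and eIF6. The names also bring in Eif2c5, an argonaute-type name, and Eif4enif1, the eIF4E transporter, which are not classical initiation factors. Eif4e1b, Eif4a3l1 and Eif2c5 reached at most 0.159, 0.15 and 0.108 CPM (counts-per-million) in any library and entered no test, which left 47 genes tested in nearly every tissue and 46 in YA white blood cells, hippocampus and hypothalamus.

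The study measured poly(A) RNA by bulk sequencing in 620 libraries of 72 mice, to ask how age, rapamycin, the GLP-1 receptor agonist exenatide and a hypothalamic knockdown of the GLP-1 receptor (GLP-1R) act on many tissues. The ST cohort has 31 animals and 7 tissues, in 6 groups: aged animals given rapamycin, aged animals given exenatide, aged animals given exenatide with the knockdown, aged animals with the knockdown alone, aged controls and young controls. Each ST group had 5 libraries per tissue, or 4 in the white blood cells of rapamycin and exenatide animals. The LT cohort has 25 animals and 12 tissues, with 8 aged exenatide, 9 aged control and 8 young control animals, and the YA cohort has 16 animals and 8 tissues, with 8 exenatide and 8 control animals. The letters A and Y in the group names are read as aged and young because the design text names age. The labels give no strain, sex, age in months, dose, duration, knockdown vector or driver, and do not spell out LT, ST or YA. Aged controls are shared by the age, rapamycin, exenatide and knockdown comparisons within a cohort, so those comparisons are not independent of each other.

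Translation initiation brings the small ribosomal subunit, the initiator methionyl-tRNA and an mRNA together. eIF2 carries the initiator tRNA with GTP and eIF2B recharges it. eIF1 and eIF1A hold the scanning subunit open, and eIF5 triggers GTP hydrolysis at the start codon. eIF4E binds the 5′ cap, eIF4G is the scaffold and eIF4A the helicase, helped by eIF4B and eIF4H, while the large eIF3 complex bridges the mRNA and the small subunit. Rapamycin inhibits mTORC1, the kinase complex that controls eIF4E through the 4E-binding proteins and eIF4B through S6 kinase. mTORC1 also governs the translation of mRNAs that begin with a 5′ terminal oligopyrimidine tract, which encode ribosomal proteins, elongation factors and several initiation factors.

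Because of that link, the first bases of transcripts of members with clear rapamycin differences are shown, with Eif2s3x as another member that holds the tract searched for and Rps6 and Eef2 for comparison. Each window holds 20 bases before and 20 bases from the annotated transcript start in RefSeq (GRCm38.p6), 5′ to 3′ on the gene's strand, with the first 5 transcript bases in capitals. The Eif3f window lies at chr7:108934395-108934434 (plus strand), Eif4b at chr15:102073753-102073792 (plus), Eif3l at chr15:79075203-79075242 (plus), Eif2a at chr3:58525801-58525840 (plus), Eif3a at chr19:60790674-60790713 (minus), Eif2s3x at chrX:94212632-94212671 (minus), Rps6 at chr4:86857348-86857387 (minus) and Eef2 at chr10:81176611-81176650 (plus).
Eif3f: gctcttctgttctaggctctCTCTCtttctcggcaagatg
Eif4b: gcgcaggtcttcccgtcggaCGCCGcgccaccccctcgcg
Eif3l: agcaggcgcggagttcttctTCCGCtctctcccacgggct
Eif2a: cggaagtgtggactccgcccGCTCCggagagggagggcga
Eif3a: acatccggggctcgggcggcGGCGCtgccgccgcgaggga
Eif2s3x: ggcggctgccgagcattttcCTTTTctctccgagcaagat
Rps6: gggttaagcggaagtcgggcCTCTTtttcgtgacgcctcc
Eef2: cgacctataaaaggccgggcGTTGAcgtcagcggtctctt
The motif searched was a C at the annotated start followed by 4 bases that are each C or T, on the sense strand only. It was present in Eif3f, Eif2s3x and Eif2c5 among the 40 members in the table, in Rps6, and in 823 of all 32851 windows (2.51%). Annotated starts can miss the start used in a tissue by several bases, so a window without the motif says only that these letters are not at that annotated position. Eif3e, Eif3h, Eif6 and Eif4g2 were not in the table.

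Library totals ran between 15.2 and 33.8 M counts (M, mega) in LT, 14.6 and 56.2 M in ST and 14.98 and 34.1 M in YA. Defining markers of muscle, heart, hypothalamus, colon, adipose tissue, liver, kidney and lung were higher in every library labelled with that tissue than in any other library, while those of white blood cells, hippocampus, frontal cortex and spleen overlapped with other tissues. In bulk tissue, fewer cells of a type and less RNA per cell cannot be told apart. The ST hypothalamus was not analysed here, so Glp1r was not checked at the site of the knockdown. The ST aged control muscle library of animal E13 stood apart: 28 of the 47 members lay below, and 15 above, all 4 other aged control muscle libraries, at 0.186 to 3.86 times their mean. The same count over all genes was not made, so it does not set the members apart from other genes. Counts of muscle calls that use the ST aged controls are therefore given with and without E13. Other counts from fits that leave out each animal are of members only, without shares over all genes. Values of single genes in muscle include it unless said. Levels are CPM after TMM scaling of library sizes and are not per transcript length unless said. Each p-value judges a difference between groups against the spread between animals, estimated over all libraries in the fit.

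In rapamycin-treated aged ST mice, the initiation factor mRNAs that passed the test were mostly higher than in aged controls in skeletal muscle and frontal cortex, went in both directions in hippocampus and heart, and were lower in white blood cells. The eIF3 subunits Eif3f, Eif3h, Eif3g and Eif3e and the helicase cofactors Eif4b and Eif4h carried many of the differences, with folds between 0.486 and 1.84 among the members named. Over all 7 tissues 72 of 329 member tests passed an adjusted p of 0.05 in edgeR's quasi-likelihood test (21.9%, 51 higher and 21 lower), against 13.2% of all gene tests. They involved 37 of the 47 members, of which 13 were called higher in some tissue and lower in another. The plot of fold changes by member and tissue shows the muscle column mostly above 0 and the white blood cell column mostly below 0.

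**Figure D1:**
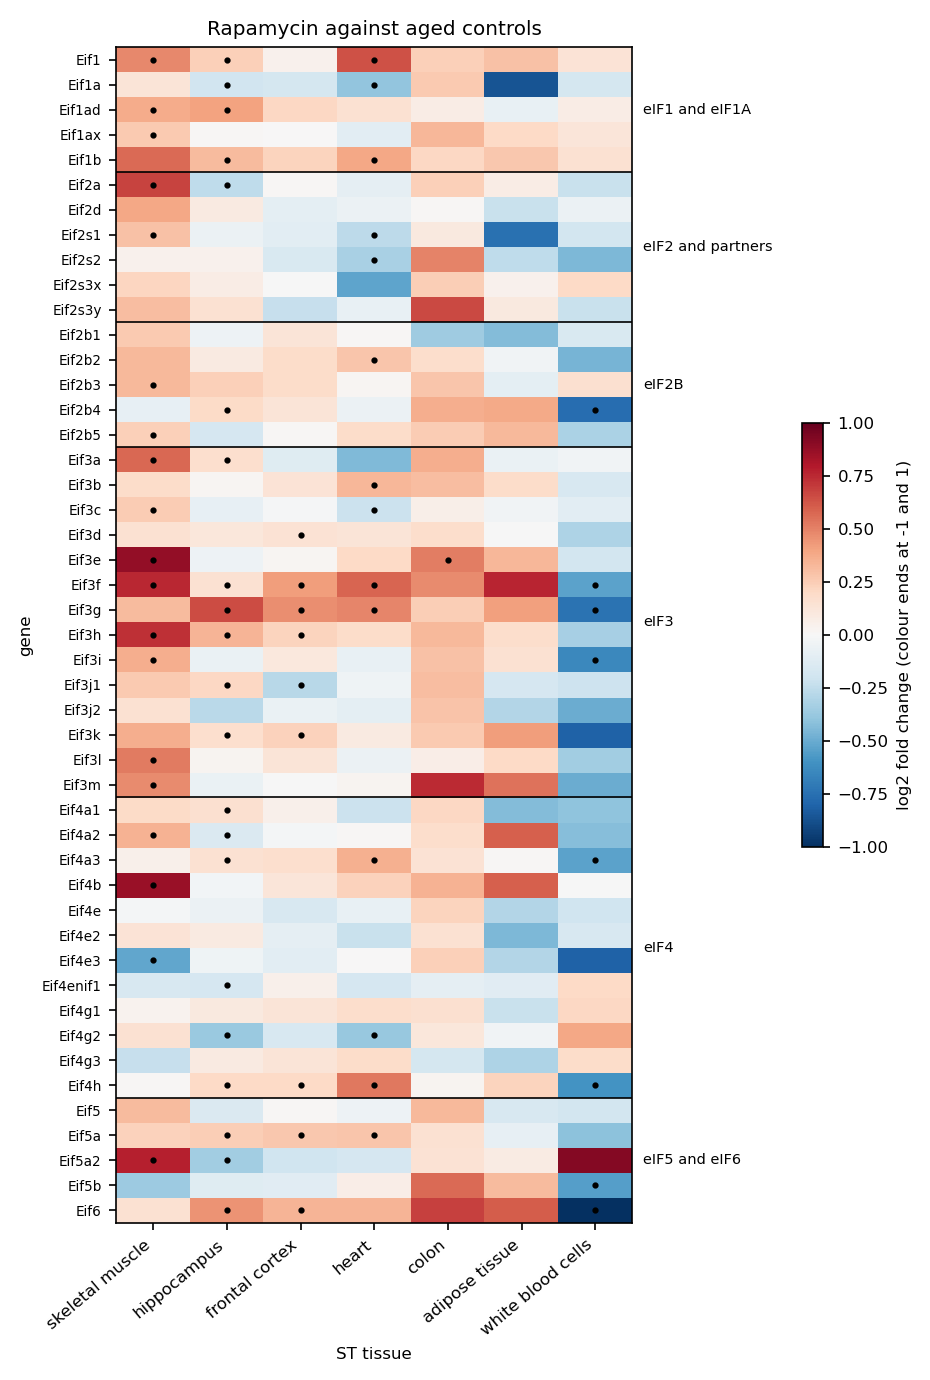
Log2 fold change of 47 initiation factor genes (rows, grouped by factor) in 7 ST tissues (columns) of rapamycin-treated against aged control animals, with dots on values that pass an adjusted p of 0.05 in edgeR's quasi-likelihood test. Muscle holds 18 higher and 1 lower call, white blood cells 8 lower calls and adipose tissue none.

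Skeletal muscle had the most higher calls. With rapamycin 18 members rose and 1 fell, where 5.51% of all genes tested were higher and 4.72% lower, and the median log2 fold change was 0.26 over the members and 0.01 over all genes. By role, all 14 eIF3 subunits had a log2 fold change above 0 (8 rose, median 0.36). So did all 5 eIF1 and eIF1A genes (3 rose, median 0.37) and all 6 tested genes of eIF2 and its partners (2 rose, median 0.30). Of 5 eIF2B genes 2 rose, of 5 eIF5 and eIF6 genes 1 rose, and of 12 eIF4 genes 2 rose and 1 fell (median 0.04). The cap-binding factor itself, Eif4e, had a log2 fold change of -0.02 (adjusted p = 0.89) and the scaffold Eif4g1 of 0.04 (adjusted p = 0.83).

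The cofactor of the eIF4A helicase, Eif4b, was at 559, 524, 548, 607 and 587 CPM in rapamycin muscle, against 347, 251, 338, 300.0 and 320.1 CPM in aged control muscle. Every rapamycin library lay above every control, with means of 565 ± 32.7 and 311 ± 37.9 CPM (SD, n = 5 each). The log2 fold change was 0.86 ± 0.10 (SE; 1.81-fold, adjusted p = 7.76e-06). Eif3e, an eIF3 subunit also known as Int6, was at 227, 254, 182, 236 and 243 CPM in rapamycin muscle, against 153, 111, 117, 121 and 119.7 CPM in aged control muscle. These groups did not overlap either, and the log2 fold change of 0.88 ± 0.10 (1.84-fold, adjusted p = 5.65e-06) was the largest called among the members in muscle. Eif3l, another eIF3 subunit, was at 73.9 to 83.4 CPM in rapamycin muscle and 45.6 to 58.2 CPM in aged control muscle (log2 fold change 0.52 ± 0.07, adjusted p = 3.98e-05). Eif2a, which can deliver initiator tRNA apart from eIF2, was at 74.4 to 91.4 CPM in rapamycin muscle and 44.999 to 71.4 CPM in aged control muscle (log2 fold change 0.68 ± 0.10, adjusted p = 0.000216).

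The member that fell in rapamycin muscle was Eif4e3, a cap-binding homologue of Eif4e. It was at 34.98, 34.1, 33.7, 41.5 and 38.9 CPM in rapamycin muscle, against 54.1, 48.2, 52.95, 54.4 and 52.8 CPM in aged control muscle. All 5 rapamycin libraries lay below all 5 controls, and the log2 fold change was -0.52 ± 0.07 (0.698-fold, adjusted p = 0.000128). Eif3f and Eif3h, which form a pair within the eIF3 complex, showed how much 1 control weighs. Eif3f was at 198, 245, 197, 193 and 219 CPM in rapamycin muscle, against 45.8, 153, 145, 143 and 136 CPM in aged control muscle, and Eif3h was at 164, 193, 158, 158 and 179.5 CPM against 41.7, 119, 120.4, 118 and 116 CPM. For both genes the rapamycin libraries lay above all controls, and E13 was the lowest control. Their log2 fold changes were 0.75 ± 0.19 (adjusted p = 0.0122) and 0.73 ± 0.17 (adjusted p = 0.00826), and without E13 they were 0.54 (adjusted p = 0.000734) and 0.53.

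**Figure D2:**
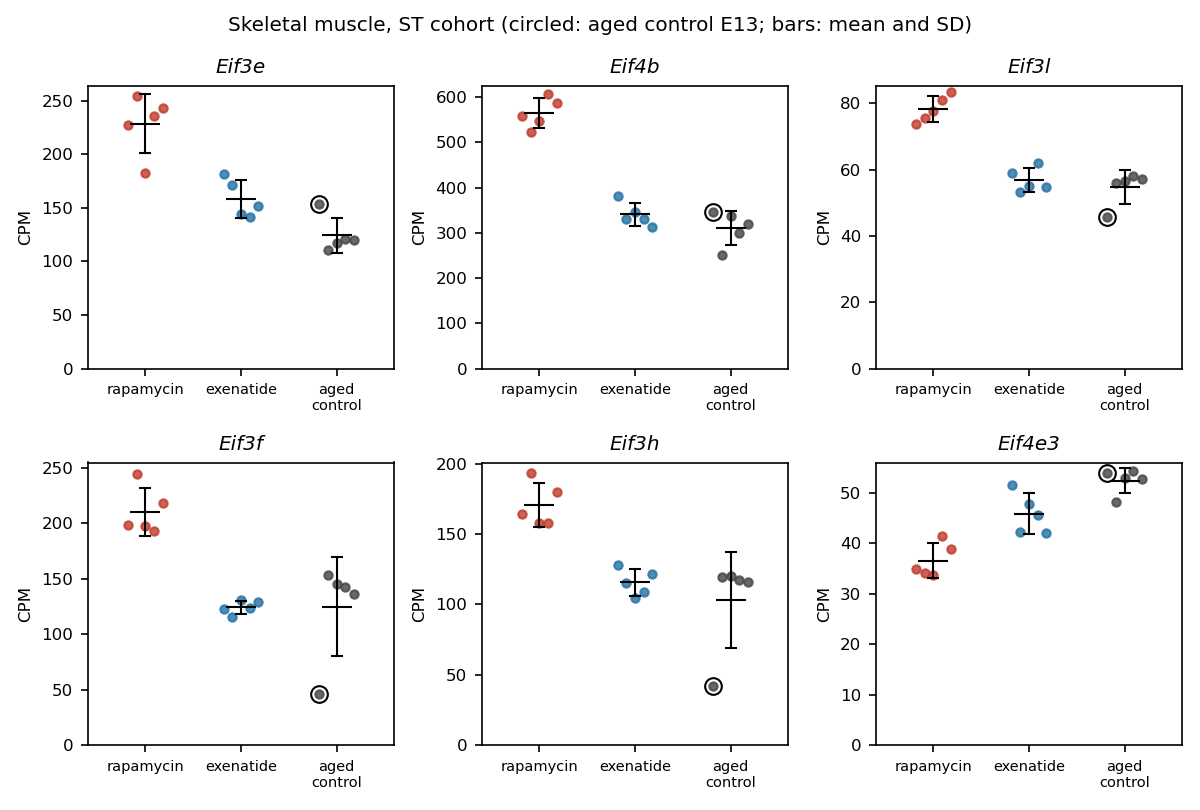
CPM of 6 members in skeletal muscle of each ST animal in the rapamycin, exenatide and aged control groups, with the mean and SD (n = 5 each) and the control animal E13 circled. Eif4b averaged 565 CPM with rapamycin and 311 CPM in aged controls, and Eif4e3 was at 33.7 to 41.5 CPM with rapamycin and 48.2 to 54.4 CPM in aged controls.

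Among the members that rose less in muscle were the eIF2B subunits Eif2b3 (log2 fold change 0.32) and Eif2b5 (0.24), Eif2s1, the eIF2 alpha subunit (0.29), and the helicase Eif4a2 (0.35). The start-codon selection factor Eif1 (0.48 ± 0.15, adjusted p = 0.0449) kept its call in 4 of 10 fits that each left out 1 animal. The eIF5A homologue Eif5a2 was at 1.06 to 3.39 CPM in rapamycin muscle and 0.619 to 1.58 CPM in aged control muscle, so the groups overlapped (log2 fold change 0.78 ± 0.26, adjusted p = 0.0499). It lost its call without E13 (0.63, adjusted p = 0.0865). In a list of 38 other translation control genes 6 rose and none fell in muscle, with a median of 0.12. They included the elongation factors Eef2 (log2 fold change 1.07 ± 0.08, adjusted p = 3.23e-10) and Eef1a1 (0.69), the ribosomal protein Rps6 (0.70) and the poly(A)-binding Pabpc4 (0.81). Eef2 was at 3362 to 3788 CPM in rapamycin muscle and 1629 to 1819 CPM in aged control muscle.

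Without E13, rapamycin muscle had 23 higher and 2 lower members, where 16.5% of all genes tested were called, and the median over members was 0.23 against 0.01 over all genes. Log2 fold changes were then 0.90 for Eif4b, 0.96 for Eif3e, 0.46 for Eif3l, 0.81 for Eif2a, -0.51 for Eif4e3 and 0.30 for Eif1. Without the rapamycin animal E6, 11 members were called. A fit limited to the 2 conditions compared left 2 calls in muscle, Eif3e and Eif4b. Markers of other cells in muscle moved too: the summed level of 3 endothelial markers was 46.99 to 117 CPM with rapamycin and 109.6 to 138 CPM in aged controls (2 of 3 called lower), and of 3 smooth muscle markers 10.7 to 36.3 and 34.3 to 63.8 CPM (Acta2 and Myh11 called lower). Macrophage markers summed to 14.8 to 28.6 CPM with rapamycin and 21.7 to 79.4 CPM in aged controls. Their part in the muscle result was not tested.

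Frontal cortex had 8 higher and 1 lower members with rapamycin, where 7.81% of genes were higher and 10.4% lower, and 5 of the 8 were eIF3 subunits. Eif3f was at 124, 115, 119, 114 and 136 CPM in rapamycin frontal cortex, against 86.7, 89.2, 95.2, 93.9 and 89.1 CPM in aged controls. The groups were well apart, with a log2 fold change of 0.42 ± 0.05 (1.34-fold, adjusted p = 2.44e-05). Eif3h was at 114 to 132 CPM in rapamycin frontal cortex and 98.9 to 106 CPM in aged controls (log2 fold change 0.22 ± 0.05, adjusted p = 0.00241). Eif3g, an RNA-binding eIF3 subunit, was at 28.4 to 33.7 CPM in rapamycin frontal cortex and 20.02 to 28.2 CPM in aged controls, also without overlap (0.46 ± 0.12, adjusted p = 0.00688). Eif3k, Eif3d, Eif4h, Eif6, which keeps the ribosomal subunits apart, and Eif5a, an elongation factor named for its early assignment to initiation, rose by 0.14 to 0.34 on the log2 scale, and Eif3j1 fell by 0.28. Summed oligodendrocyte markers were 2601 to 3241 CPM with rapamycin and 3489 to 3669 CPM in aged controls, and their part was not tested. Leaving out each animal in turn gave 7 to 11 calls.

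Hippocampus had 15 higher and 6 lower members with rapamycin, in a tissue where 14.1% of all genes were higher and 13.5% lower; the median was 0.08 over members and -0.00 over all genes. Of the eIF3 genes 6 of 14 rose and none fell. Eif4g2, also known as DAP5, an eIF4G relative that does not bind eIF4E, was at 548, 575, 569, 568 and 555 CPM with rapamycin, against 718, 720.5, 773, 727 and 698 CPM in aged controls. The groups were far apart and the log2 fold change was -0.37 ± 0.04 (0.774-fold, adjusted p = 7.6e-08). Eif1ad, an eIF1A-domain protein, was at 22.1 to 24.8 CPM with rapamycin and 16.1 to 19.2 CPM in aged controls (0.40 ± 0.06, adjusted p = 6.39e-06). Eif3g was at 47.1 to 51.1 CPM with rapamycin and 22.7 to 37.1 CPM in aged controls (0.65 ± 0.10, 1.57-fold, adjusted p = 9.22e-06), and neither gene's groups overlapped.

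Eif3h (0.34), Eif6 (0.45), Eif1b (0.32), Eif5a (0.24) and Eif4h (0.20) also rose in rapamycin hippocampus, while Eif5a2 fell by 0.35, Eif2a by 0.25 and Eif4a2 by 0.14 on the log2 scale. Eif3f was at 106 to 123 CPM with rapamycin and 98.2 to 106 CPM in aged controls, a smaller difference (0.16 ± 0.05, adjusted p = 0.0222) that lost its call without E28, E30 or E6. Of the translation control list 7 rose and 7 fell. Of the 30 ST hippocampus libraries 8 held over 35 M counts, among them 2 rapamycin and no aged control libraries; without all 8, rapamycin had 6 higher and 3 lower members, and Eif4g2 stayed at -0.37 (adjusted p = 0.00014). Summed macrophage markers were 21.97 to 27.96 CPM with rapamycin and 25.7 to 51.5 CPM in aged controls, and oligodendrocyte markers 3153 to 4679 and 4069 to 5786 CPM. Their part was not tested.

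Heart had 9 higher and 5 lower members with rapamycin, where 13.3% of genes were higher and 10.1% lower, and medians over members and all genes were 0.01 and 0.02. The start-codon factor Eif1 was at 629, 719.9, 1062, 637 and 719 CPM in rapamycin heart, against 505, 504, 393, 485 and 536 CPM in aged control heart. All rapamycin libraries lay above the controls (log2 fold change 0.64 ± 0.12, 1.56-fold, adjusted p = 0.00136). Eif3f ran between 149 and 289 CPM in rapamycin heart and between 124 and 156 CPM in aged control heart, with the lowest rapamycin library inside the control range (0.58 ± 0.13, adjusted p = 0.00395). Eif3b, a core eIF3 scaffold subunit, was at 166 to 221 CPM in rapamycin heart and 150.1 to 167 CPM in aged control heart, with 1 rapamycin library inside the control range (0.33 ± 0.07, adjusted p = 0.00337).

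Genes of eIF2 and its partners went the other way in heart: all 6 tested had a log2 fold change below 0 and 2 fell. Eif2s2, the eIF2 beta subunit, was at 105, 112, 144, 107 and 108 CPM in rapamycin heart, against 149, 124, 165, 147 and 138 CPM in aged control heart; the groups overlapped through E28. Its log2 fold change was -0.33 ± 0.10 (0.797-fold, adjusted p = 0.0171), and that of Eif2s1 was -0.26 ± 0.08 (adjusted p = 0.0262). The rapamycin heart of E28 also held kidney tubule and adipocyte marker sums of 14.1 and 37.9 CPM, where no aged control exceeded 0.639 CPM, and macrophage and leukocyte markers were lower with rapamycin (sums of 239 to 668 against 317 to 994 CPM, and 11.03 to 24.1 against 26.99 to 89.6 CPM). Their part was not tested. The heart count was 14, and it was 10 without E28, 9 without E13 or E29, 7 without E30 or E22 and 5 without E6.

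White blood cells had 8 lower and no higher members with rapamycin, where 6.32% of genes were lower, and the median was -0.21 over members and -0.06 over all genes. All 14 eIF3 genes had a log2 fold change below 0 and 3 fell. Eif6 was at 29.005, 26.1, 20.6 and 24.2 CPM in rapamycin white blood cells, against 60.2, 84.4, 38.2, 41.3 and 32.6 CPM in aged controls. The groups did not overlap, although the controls spread widely (log2 fold change -1.04 ± 0.26, 0.486-fold, adjusted p = 0.0132). Eif2b4, the eIF2B delta subunit, was at 11.7 to 13.02 CPM with rapamycin and 14.3 to 27.4 CPM in aged controls (-0.76 ± 0.18, adjusted p = 0.0100). Eif3f was at 211 to 243 CPM with rapamycin and 251 to 464 CPM in aged controls (-0.54 ± 0.16, adjusted p = 0.0263). Eif3f was thus called with rapamycin in 5 tissues, higher in muscle, frontal cortex, heart and hippocampus and lower in white blood cells.

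The white blood cell count changed when single animals were left out. Shares over all genes are not given for such fits, so changes in members and in all genes cannot be told apart. The count was 4 without E13 or E28, 3 without E23 or E36 and 1 without E6, and Eif3f lost its call without any of these 5. It was 2, 1 higher and 1 lower, in a fit that removes the trend of each library's counts with transcript length and GC content (the length and GC trend), where colon had 0. Summed erythroid markers ran between 38581 and 163065 CPM with rapamycin and between 78329 and 407026 CPM in aged controls, and leukocyte markers between 1854 and 2214 and between 1965 and 4737 CPM, and their part was not tested. In colon 1 member rose, Eif3e, where 0.0938% of genes were higher, although all 14 eIF3 genes had a log2 fold change above 0 (median 0.30 for eIF3 and 0.24 over members, 0.04 over all genes). Eif3e was at 200.4, 239, 353, 238 and 241 CPM in rapamycin colon, against 165, 183, 208, 167 and 169 CPM in aged control colon, with a small overlap (0.51 ± 0.12, adjusted p = 0.0395), and leaving out E13, E23, E30, E32, E22 or E28 each ended its call, while there were 2 calls without E36 or E6. Adipose tissue had no member call in edgeR's test and 2 in DESeq2, and 1 of 17665 genes was called there. At an unadjusted p under 0.05 it held 4 of 47 members and 1881 of 17665 genes.

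**Figure D3:**
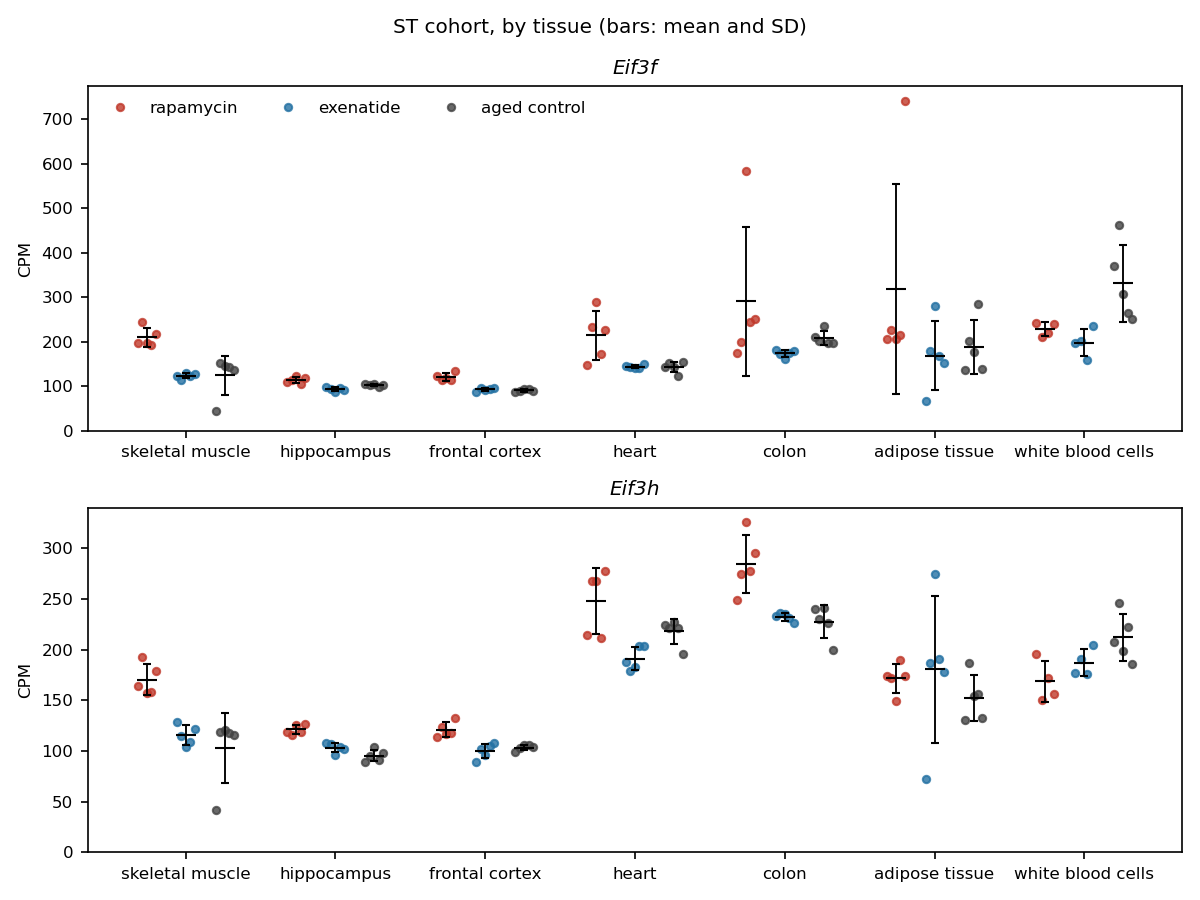
CPM of Eif3f and Eif3h in each animal of the rapamycin, exenatide and aged control groups in 7 ST tissues, with the mean and SD. In frontal cortex the 5 rapamycin libraries, at 114 to 136 CPM of Eif3f, lie above all exenatide (88.4 to 96.9 CPM) and aged control libraries (86.7 to 95.2 CPM); in white blood cells the aged controls are highest.

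Rapamycin was also set against exenatide directly, both in aged animals, with the other ST groups entering only the shared estimate of the spread. Eif3f and Eif3h were higher with rapamycin in frontal cortex, hippocampus, muscle and heart. In all 21 of 329 member tests were called (6.38%, 19 higher and 2 lower), against 2.32% of all gene tests. Muscle had 9 higher and 1 lower members (6.29% of all genes called), with medians of 0.18 over members and -0.01 over all genes. Heart had 6 higher (5.30%), and 11 higher with the length and GC trend removed. Frontal cortex had 2 higher (0.856%), hippocampus 2 higher (0.710%) and adipose tissue 1 lower (3.80%). White blood cells and colon had none in edgeR's test, with 0 and 2 in DESeq2. At an unadjusted p under 0.05 they held 1 and 11 of 47 members, where 701 of 15190 and 2151 of 18115 genes passed.

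Eif3f was at 114 to 136 CPM in rapamycin frontal cortex and 88.4 to 96.9 CPM in exenatide frontal cortex, without overlap (log2 fold change 0.38 ± 0.05, adjusted p = 0.000124). In hippocampus it was at 106 to 123 and 86.9 to 98.3 CPM (0.29 ± 0.05, adjusted p = 0.00349), and in muscle at 193 to 245 and 115 to 131 CPM (0.76 ± 0.19, adjusted p = 0.0131). In heart the rapamycin range of 149 to 289 CPM touched the exenatide range of 141 to 149.5 CPM (0.57, adjusted p = 0.0172). Eif3h in frontal cortex was at 114 to 132 CPM with rapamycin and 89.5 to 108 CPM with exenatide (0.27 ± 0.05, adjusted p = 0.00294).

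In muscle Eif4b was 1.66-fold higher with rapamycin than with exenatide (0.73 ± 0.10, adjusted p = 5.35e-05), Eif3l (0.46) and Eif3e (0.53 ± 0.10, adjusted p = 0.0018) were higher, and Eif4e3 was lower (-0.33 ± 0.07, adjusted p = 0.00786). Eif3e was at 182 to 254 CPM with rapamycin and 141 to 182 CPM with exenatide. In adipose tissue Eif2s1 was at 45.3, 47.1, 40.7, 50.02 and 19.9 CPM with rapamycin, against 75.7, 89.1, 98.4, 71.1 and 71.5 CPM with exenatide. The groups did not overlap (-0.998 ± 0.20, 0.501-fold, adjusted p = 0.0255), while summed leukocyte markers were 53.4 to 145 CPM with rapamycin and 143 to 876 CPM with exenatide and macrophage markers 483 to 3129 and 1272 to 10712 CPM, and their part was not tested. Heart gave 1 call without E28, 2 without E31, 11 without E10 and 17 without E36. Muscle gave 6 without E7, and 18 higher and 1 lower without the aged control E13, where 15.4% of genes were called. Eif3h in muscle lost its call without any single rapamycin or exenatide animal, but without E13 it was 0.56 (adjusted p = 4.42e-05). Skeletal muscle fibre markers summed to 153161 to 190304 CPM with rapamycin and 111848 to 151724 CPM with exenatide, and their part was not tested. Adipose tissue had 0 without E25 or E31 and 3 without E7, and Eif3h in hippocampus kept its call in 1 of 10 such fits, that without E22.

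In ST mice given exenatide, compared with aged controls, hippocampus had 8 higher and 9 lower members, where 28.6% of all genes were called. Eif4g2 was at 536, 555, 585, 557 and 556 CPM with exenatide, against 718, 720.5, 773, 727 and 698 CPM in aged controls (log2 fold change -0.38 ± 0.04, adjusted p = 4.84e-08). Eif5a2 fell by 0.40 (adjusted p = 1.76e-05), and Eif6 (0.47), Eif3g (0.54) and Eif1ad (0.30) rose. Without the 8 deepest libraries, 3 of which were exenatide, 2 rose and 2 fell; leaving out E25 or E5 gave 11 calls. There were 3 higher and 8 lower with the length and GC trend removed. Cortical neuron markers summed to 53.4 to 71.2 CPM with exenatide and 71.5 to 86.7 CPM in aged controls, hippocampal neuron markers to 311 to 341 and 334 to 400.5 CPM, and oligodendrocyte markers to 5300.5 to 6648 and 4069 to 5786 CPM, and their part was not tested.

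Muscle had 8 higher members with exenatide and none lower, 17.0% of those tested, against 18.4% of genes called. Of 14927 genes 1392 were higher and 1348 lower. The median was 0.10 over members and 0.02 over all genes. Eif2s1, the eIF2 subunit whose phosphorylation slows initiation, was at 46.5, 49.2, 42.9, 43.4 and 43.1 CPM with exenatide, against 30.8, 36.7, 34.1, 37.4 and 34.4 CPM in aged controls. The groups did not overlap (0.38 ± 0.08, adjusted p = 0.00144). Eif3m (0.36), Eif4a2 (0.31), Eif3e (0.35) and Eif5 (0.32) also rose. Removing the length and GC trend left 2 lower members and none higher, with Eif3m at -0.11 and Eif4a2 at -0.031. Without E13 the muscle count was 13 higher and 7 lower (28.4% of genes called), and it was 4 without E19 and 5 without E25 or E29. Endothelial markers summed to 38.6 to 82.2 CPM with exenatide and 109.6 to 138 CPM in aged controls, and their part was not tested.

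White blood cells had 6 lower members with exenatide (6.66% of genes called), led by Eif3f at 197, 202, 159.5 and 235 CPM with exenatide, against 370.1, 464, 308, 264 and 251 CPM in aged controls (-0.74 ± 0.16, adjusted p = 0.0123). Eif6 was at 21.5 to 34.7 CPM with exenatide and 32.6 to 84.4 CPM in aged controls (-0.96 ± 0.26, adjusted p = 0.0298). The count was 1 without E19 or E13, 2 without E25 or E23, 0 without E31 and 2 with the length and GC trend removed. Heart had 4 lower members (2.47% of genes called), Eif4a1 (-0.39), Eif1a (-0.52), Eif2s2 and Eif2s1 (-0.31). Eif2s2 was at 107 to 120.2 CPM with exenatide and 124 to 165 CPM in aged controls (-0.36 ± 0.10, adjusted p = 0.0402), and leaving out any heart library but that of E32 gave 0 or 1 call, while removing the length and GC trend left 2. Adipose tissue, colon and frontal cortex had no member call in edgeR's test, with 0, 1 and 0 in DESeq2. At an unadjusted p under 0.05 they held 5, 2 and 5 of 47 members. Over all genes 1834 of 17665, 1894 of 18115 and 2925 of 18227 passed there.

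In aged against young ST controls, 31 calls were higher and 24 lower in age, 16.7% of member tests, against 13.6% of all gene tests. Hippocampus had 7 higher and 13 lower members (26% of genes called): Eif4g2 was at 718, 720.5, 773, 727 and 698 CPM in aged controls, against 634, 604, 576, 617 and 618 CPM in young controls, without overlap (0.25 ± 0.04, adjusted p = 3.28e-05). Eif5a2 rose by 0.36 and Eif1ad (-0.33 ± 0.06, adjusted p = 0.00012), Eif3j1 (-0.33), Eif3g (-0.49) and Eif6 (-0.39) were lower in age. With the 8 deepest libraries left out, 3 of which were young controls, 6 members were called, and with the length and GC trend removed 2 were higher and 10 lower. Summed choroid plexus markers reached 11360 CPM in the young and 372 CPM in the aged hippocampus, and macrophage markers were 25.7 to 51.5 CPM in aged and 15.8 to 22.1 CPM in young controls. Astrocyte markers summed to 761 to 1064 CPM in aged and 540.3 to 619 CPM in young hippocampus, and their part was not tested.

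**Figure D4:**
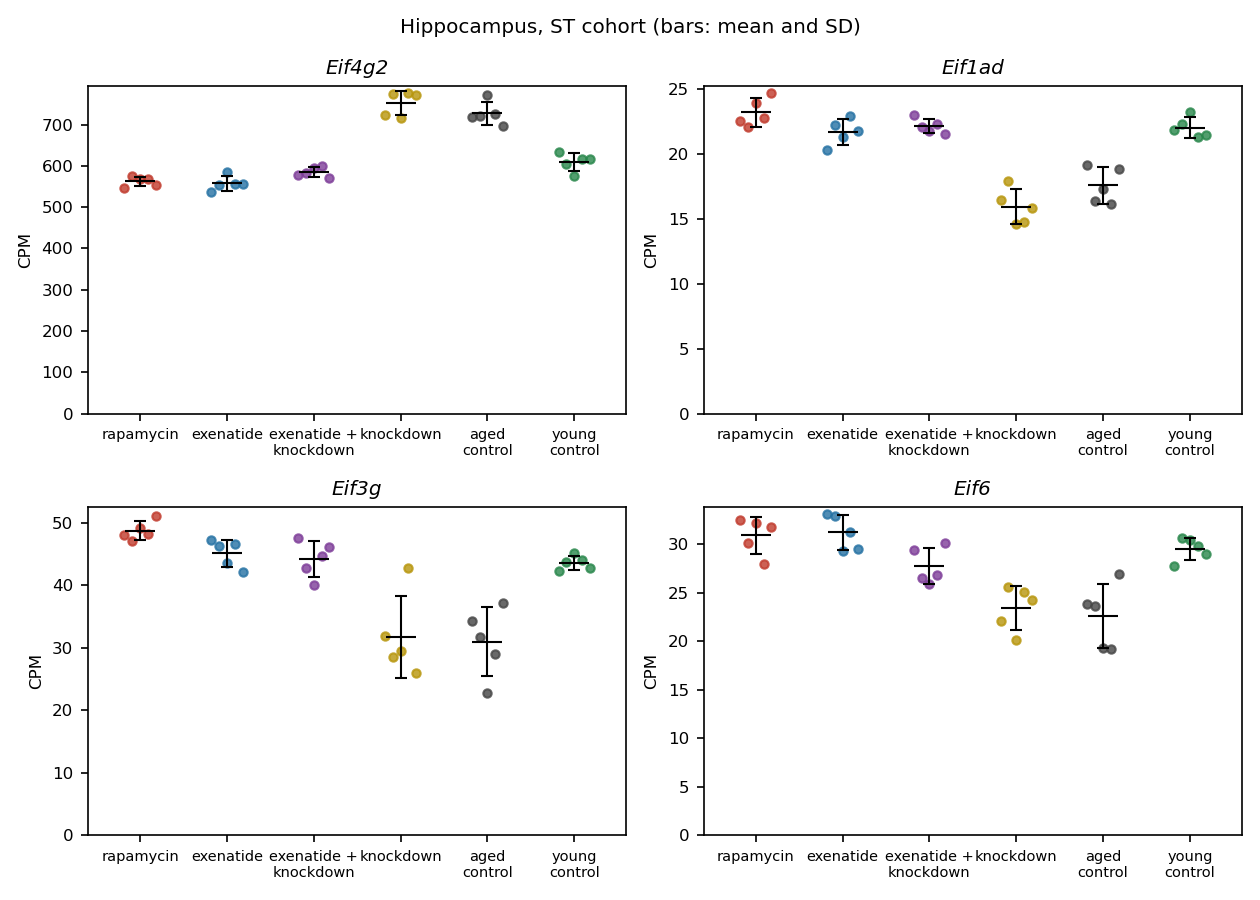
CPM of Eif4g2, Eif1ad, Eif3g and Eif6 in the hippocampus of each ST animal in 6 groups, with the mean and SD (n = 5 each). Eif4g2 averaged 563 CPM with rapamycin, 558 CPM with exenatide, 585 CPM with exenatide and knockdown, 752 CPM with knockdown, 727 CPM in aged controls and 609.6 CPM in young controls.

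White blood cells had 14 members higher in age and 1 lower (23.6% of genes called). Eif4h was at 226, 244, 169.9, 172 and 165 CPM in aged controls, against 106, 110.5, 122, 116 and 102 CPM in young controls (0.81 ± 0.14, adjusted p = 0.000761). Eif3f was at 251 to 464 CPM in aged and 180.3 to 202 CPM in young controls (0.78 ± 0.15, adjusted p = 0.00121), and Eif6 at 32.6 to 84.4 and 19.3 to 30.5 CPM (1.15 ± 0.24, adjusted p = 0.00229). None of these 3 genes overlapped between aged and young controls. The count of 15 was 8 without E23, 9 without A42 or A43, 3 with the length and GC trend removed and 11 without A44, the young library whose erythroid markers summed to 1.95e+06 CPM (TMM scaling of library sizes lets a CPM exceed 1e+06). Macrophage markers summed to 2650 to 4751 CPM in aged and 1849 to 1975 CPM in young white blood cells, without overlap, and leukocyte markers to 1965 to 4737 and 1677 to 2659 CPM, and their part was not tested.

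Heart had 8 members higher and 3 lower in age, 23.4% of those tested, against 24.6% of genes called. Eif2a was at 81.2, 68.2, 96.8, 79.1 and 67.6 CPM in aged heart, against 60.9, 62.1, 52.8, 61.6 and 57.99 CPM in young heart, without overlap (0.41 ± 0.09, adjusted p = 0.00459). Eif1a (0.56), Eif2s2 (0.38) and Eif3c (0.30) rose with it, and the count was 6 without E29 or A42 and 7 without A46. Heart had 2 higher and 7 lower members with the length and GC trend removed, and Eif2s2 was at -0.058. Leukocyte markers summed to 26.99 to 89.6 CPM in aged and 10.2 to 19.5 CPM in young heart, and macrophage markers to 317 to 994 and 181 to 257 CPM, and their part was not tested. Muscle had 2 higher and 6 lower members, 17.0% of those tested, against 18.5% of genes called. Eif2s1 led, at 30.8 to 37.4 CPM in aged and 42.2 to 47.8 CPM in young muscle (-0.39 ± 0.08, adjusted p = 0.000984). Without E13 there were 8 higher and 9 lower (29.7% of genes called). The muscle count was 3 without A45, 4 without A47 and, with the length and GC trend removed, 3 higher and 1 lower. Endothelial markers summed to 109.6 to 138 CPM in aged and 45.3 to 71.7 CPM in young muscle, and skeletal muscle fibre markers to 139446 to 165666 and 114442 to 135787 CPM, without overlap, and their part was not tested. Frontal cortex had 1 lower member, Eif4a1 (-0.20, adjusted p = 0.0329), where 5.56% of genes were called. That tissue had 0 calls without E13, E29, E30, A43, A45 or A46, 2 without E32 and 3 with the length and GC trend removed. Adipose tissue and colon had 0 members in edgeR's test, in DESeq2 and at an unadjusted p under 0.05. At that unadjusted p 1033 of 17665 and 575 of 18115 genes passed there.

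The GLP-1R knockdown in aged mice without exenatide gave 12 member calls against aged controls, 6 higher and 6 lower. They were 3.65% of member tests, close to the 3.27% called over all gene tests. Frontal cortex had 2 higher and 3 lower (6.32% of genes called), among them Eif6 (0.39 ± 0.10, adjusted p = 0.0356) and Eif3j1 (-0.28); hippocampus had 2 higher and 1 lower (4.98%), led by Eif3c (0.28, adjusted p = 0.0349). Muscle had 2 higher (3.83%), Eif2s1 (0.30 ± 0.08, adjusted p = 0.0301) and Eif1ax, and white blood cells 2 lower (7.97%), Eif4h (-0.55) and Eif3f. Eif3f was at 217 to 242 CPM in knockdown and 251 to 464 CPM in aged control white blood cells (-0.53 ± 0.15, adjusted p = 0.0315). The counts changed when single animals were left out. Apart from muscle without E13, shares over all genes are not given for these fits. Frontal cortex had 0 without E13, E23, E30, E20, E35 or E8, 1 without E29 and 3 without E21 or E9. Hippocampus had 0 without E13, E30, E32 or E8, 1 without E23 or E9, 5 without E20, 11 without E29 and 14 without E21. Muscle had 12 higher and 3 lower without E13, where 15% of genes were called, 0 without E35, E8 or E9 and 1 without E23, E29, E32 or E21, and white blood cells had 0 without E13 or E23, 1 without E35, 4 without E32 and 5 without E20. Hippocampus had 5 calls and the other 3 of these tissues 0 with the length and GC trend removed. Endothelial markers in muscle summed to 60.2 to 83.1 CPM with the knockdown and 109.6 to 138 CPM in aged controls, and their part was not tested. Adipose tissue, colon and heart had none in edgeR's test and in DESeq2, with 0, 0 and 11 of 47 members at an unadjusted p under 0.05. Over all genes 505 of 17665, 253 of 18115 and 2726 of 15763 passed at that unadjusted p.

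Exenatide within knockdown animals gave 23 calls, all in hippocampus (10 higher and 13 lower, where 31.3% of genes were called). Eif4g2 was at 579, 583, 594, 599 and 571 CPM with exenatide and knockdown, against 724, 774, 717, 776 and 771 CPM with the knockdown alone (-0.36 ± 0.04, adjusted p = 9.53e-08). Eif1ad rose by 0.47 and Eif1b by 0.63, Eif1 rose by 0.51 and the subunit-joining factor Eif5b fell by 0.85. Leaving out each animal gave 18 to 25 calls. The other 6 tissues had none in edgeR's test and 0 to 2 in DESeq2, with 2 to 8 of 47 members at an unadjusted p under 0.05. These ran from 2 in colon, where 2564 of 18115 genes passed, to 8 in white blood cells, where 2797 of 15190 passed.

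Whether the exenatide response differed by knockdown was tested as an interaction, and 15 members passed, all in muscle (3 positive and 12 negative, as the response with the knockdown minus that without, where 19% of genes were called). Eif2s1 averaged 45.03 ± 2.76 CPM with exenatide and 34.7 ± 2.59 CPM in aged controls, but 39.2 ± 4.87 CPM with exenatide and knockdown and 42.6 ± 2.78 CPM with the knockdown alone (SD, n = 5 each; interaction -0.50 ± 0.11, adjusted p = 0.002). Eif5 averaged 268 ± 29.2 CPM with exenatide and 214 ± 17.2 CPM in aged controls, against 221 ± 39.6 CPM with exenatide and knockdown and 263 ± 21.3 CPM with the knockdown alone (interaction -0.57 ± 0.15, adjusted p = 0.00984). Without E13 the interaction had 9 positive and 16 negative members (31%), and it had 8 without E33 and 9 without E25 or E35. With the length and GC trend removed, 1 positive and 1 negative member were called, and the interaction turned to 0.0086 for Eif2s3y, 0.15 for Eif3m, 0.023 for Eif3e, 0.088 for Eif4a2 and -0.043 for Eif4h. The other 6 tissues had none in edgeR's test and 0 or 1 in DESeq2, with 0 to 11 of 47 members at an unadjusted p under 0.05. These ran from 0 in colon, where 403 of 18115 genes passed, to 11 in heart, where 3007 of 15763 passed. Endothelial markers in muscle summed to 38.6 to 82.2 CPM with exenatide, 61.1 to 131 CPM with exenatide and knockdown, 60.2 to 83.1 CPM with the knockdown and 109.6 to 138 CPM in aged controls, and their part was not tested.

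In the LT cohort, aged against young controls gave 63 member calls over 12 tissues (11.2% of member tests, 23 higher and 40 lower), against 13.6% of all gene tests, so the members were not called more often than other genes. Adipose tissue had 6 higher and 15 lower (50.8% of genes called; median -0.13 over members and -0.00 over all genes). All 5 subunits of eIF2B, the exchange factor that recharges eIF2, fell there, with a median of -0.42, although Eif2b4 was at 0.016 with the length and GC trend removed. Eif2b1 ran between 21.99 and 33.98 CPM with a median of 26.1 in aged adipose tissue, and between 36.9 and 48.8 CPM with a median of 42.1 in young adipose tissue, so the groups did not overlap (-0.64 ± 0.08, 0.643-fold, adjusted p = 6.18e-06). Eif3l was at 108, 123 and 138 CPM (lowest, median, highest) in aged and 149, 186 and 207 CPM in young adipose tissue, again apart (-0.55 ± 0.08, adjusted p = 2.84e-05).

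Cell type markers moved with age in LT adipose tissue. Leukocyte markers summed to 287 to 1245 CPM in aged and 65.9 to 408 CPM in young animals, adipocyte markers to 1088 to 4808 and 3869 to 9673 CPM, and endothelial markers to 205 to 438 and 493 to 634 CPM, and their part was not tested. LT libraries fall into batches 1, 2 and 3. Eif2b1 was -0.63 in batch 3 alone (adjusted p = 0.057) and -0.65 in batches 1 and 2 alone (adjusted p = 0.00084), and Eif3l was -0.50 and -0.60. Over all tissues with a within-batch fit, the age comparison had 2 calls in batch 3 alone, where the whole cohort had 50, and 54 in batches 1 and 2, where it had 62. For adipose tissue these counts were 0 and 17. Within-batch fits hold fewer animals, so fewer calls there do not by themselves show a difference between batches.

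LT heart had 1 higher and 11 lower members in age (17.9% of genes called; median -0.12). Eif1ax was at 80.6, 84.9 and 96.9 CPM (lowest, median, highest) in aged and 93.9, 104 and 108 CPM in young heart, a small overlap (-0.24 ± 0.05, adjusted p = 0.00125). The cap-binding Eif4e fell by 0.31 (adjusted p = 0.00227). Heart had 7 calls without A54, and 0 in batch 3 alone and 9 in batches 1 and 2. White blood cells, all of batch 1, had 2 higher and 6 lower members (27.7% of genes called). Eif3g was at 36.99, 29.8, 31.9, 27.2 and 24.6 CPM in aged and 48.5, 46.5, 46.5, 45.95 and 49.6 CPM in young white blood cells (-0.66 ± 0.14, adjusted p = 0.0061), and Eif5a2 rose by 1.07. The white blood cell count was 4 without B34 or A58 and 5 without B39, A52, A56 or A57, and 2 were higher and 16 lower with the length and GC trend removed. Leukocyte markers summed to 2732 to 4345 CPM in aged and 1832 to 2518 CPM in young white blood cells, and spleen B cell markers to 601 to 1343 and 1638 to 2247 CPM, and their part was not tested.

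LT colon had 5 higher and 1 lower members in age (14.4% of genes called; 0 in batch 3 alone and 0 in batches 1 and 2). Eif3b was at 154, 183.5 and 230.5 CPM in aged and 134.5, 145 and 152 CPM in young colon, without overlap (0.37 ± 0.08, adjusted p = 0.00794), and Eif5a2 fell by 0.80 (adjusted p = 0.00483). Colon epithelial markers summed to 21303 to 55572 CPM in aged and 2587 to 39533 CPM in young colon, and their part was not tested. Leaving out B27, A52 or A53 gave 3 calls. Muscle had 3 higher and 2 lower (11.7%; 12 in batches 1 and 2, and 17 in all without A54), led by Eif3d (0.34 ± 0.07, adjusted p = 0.0047) and Eif4e (-0.38 ± 0.08, adjusted p = 0.00547). Frontal cortex had 4 higher and 1 lower (5.74%; 0 in batch 3 and 8 in batches 1 and 2), led by Eif3i (0.26, adjusted p = 0.0145). That count was 1 without B15, B24 or A51, 2 without B34, B39, A52, A53 or A54 and 3 without A56, A57 or A58. Muscle and frontal cortex each had 2 higher members with the length and GC trend removed.

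The remaining LT tissues had few age calls. Hypothalamus had 2 lower, Eif2s3y and Eif4g2 (7.09% of genes called; 0 in either batch set). That count was 13 without A54, 12 without A58, 4 without B41, 1 without B27, and 0 without B15, B16, B19, B24, A51, A53, A55, A56 or A57. Kidney had 1 higher, Eif5b (7.45%; 1 in batch 3 and 0 in batches 1 and 2), liver, all of batch 3, had 1 lower, Eif4a3 (4.50%), and spleen had Eif3g higher and Eif2s3y lower (11.2%; 0 in either batch set). The kidney call was lost without B16, B19, B27, B37, B39, B41, A51, A53, A55, A57 or A58, and there were 2 without A56. Liver had 3 without A51 and 2 without B24 or A52, and its call was lost without any other animal except B27 or A53. Spleen had 0 without B27, B34, B37, B39, B41, A51, A53, A54 or A58 and 1 without A55, A56 or A57. Hippocampus and lung had none in edgeR's test and 0 and 2 in DESeq2, with 2 and 6 of 47 members at an unadjusted p under 0.05. Over all genes 1453 of 17601 and 3810 of 17743 passed there.

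LT exenatide against aged controls gave 38 member calls, 22 higher and 16 lower, 6.74% of member tests, against 4.92% of all gene tests. Adipose tissue had 1 call with the length and GC trend removed, kidney 3, and colon, hypothalamus and white blood cells 0. Adipose tissue had 9 higher and 4 lower (18.8% of genes called). Eif3g was at 44.1, 53.3 and 71.1 CPM (lowest, median, highest) with exenatide and 23.97, 31.1 and 52.8 CPM in aged controls, with some overlap (0.72 ± 0.12, 1.64-fold, adjusted p = 0.00108). Eif3l was at 125, 166 and 189 CPM with exenatide and 108, 123 and 138 CPM in aged controls, also overlapping (0.37 ± 0.08, adjusted p = 0.00327), and Eif2b1 was 0.26 higher (adjusted p = 0.0246). Eif3g was 0.55 in batch 3 and 0.83 in batches 1 and 2, the tissue's counts were 0 and 11, and leaving out B36, B14 or B41 gave 7, 8 and 8. Adipocyte markers summed to 2552 to 7849 CPM with exenatide and 1088 to 4808 CPM in aged controls, and their part was not tested.

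LT colon had 2 higher and 6 lower members with exenatide (12.1% of genes called). Eif3b was at 118, 141 and 166 CPM with exenatide and 154, 183.5 and 230.5 CPM in aged controls (-0.43 ± 0.08, adjusted p = 0.00243), and Eif3g at 19.6, 26.4 and 36.9 CPM and 33.1, 43.5 and 84.7 CPM (-0.81 ± 0.17, 0.57-fold, adjusted p = 0.00474). Both genes overlapped slightly between the groups. They were -0.39 and -0.46 in batch 3 and -0.45 and -1.06 in batches 1 and 2, the tissue had 0 and 4 calls there, and leaving out B13, B14 or B25 gave 4 and B28, B16 or B27 gave 5. Kidney had 3 higher and 4 lower (14.2%), with Eif5 at 266, 323 and 400.3 CPM with exenatide and 354, 412 and 486 CPM in aged controls, with overlap (-0.36 ± 0.08, adjusted p = 0.00715; -0.52 in batch 3 and -0.29 in batches 1 and 2). Kidney calls numbered 13 in batch 3 and 0 in batches 1 and 2, 4 without B15, B24 or B37, and 12 and 11 without B34 or B39. Erythroid markers in kidney summed to 81.2 to 1033 CPM with exenatide and 24.97 to 133 CPM in aged controls, and their part was not tested.

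Hypothalamus, where the GLP-1 receptor was targeted in another cohort, had 6 higher and 2 lower members with exenatide in LT (6.2% of genes called; 0 in batch 3 and 6 in batches 1 and 2). Eif3e was at 71.3, 87.1 and 101 CPM with exenatide and 58.1, 66.7 and 87.9 CPM in aged controls, with overlap (0.34 ± 0.09, adjusted p = 0.0326; 0.26 in batch 3 and 0.37 in batches 1 and 2), and it kept its call in 9 of 17 fits without 1 animal. The hypothalamus count was 0 without B14, B25, B26, B15, B16, B24, B27 or B34, 2 without B40 or B39, 4 without B28 or B19 and 5 without B30. White blood cells had 2 higher (0.875%), Eif6 (0.67 ± 0.14) and Eif3g (0.65 ± 0.14, both adjusted p = 0.0456). Eif3g was at 33.7, 58.7, 56.97, 45.1 and 41.5 CPM with exenatide, against 36.99, 29.8, 31.9, 27.2 and 24.6 CPM in aged controls, without overlap except for B13. Without B13 there were 16 calls, and without any other animal there were 0. The other 7 LT tissues had no member call in edgeR's test and 0 to 5 in DESeq2. At an unadjusted p under 0.05 they held 0 to 10 of 47 members. These ran from 0 in liver, where 1727 of 14881 genes passed, to 10 in heart, where 3751 of 15036 passed.

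In the YA cohort 1 of the member tests passed (0.268%, against 0.631% of all gene tests). Eif5b fell in colon, where 4.61% of genes were called, at 105, 124 and 143 CPM (lowest, median, highest) with exenatide and 124, 174 and 213 CPM in controls, so the groups overlapped (-0.43 ± 0.10, 0.74-fold, adjusted p = 0.02). Colon epithelial markers summed to 5742 to 13980 CPM with exenatide and 13983 to 26596 CPM in controls, and their part was not tested. The other 7 YA tissues had no member call in edgeR's test or DESeq2, with 0 to 16 members at an unadjusted p under 0.05. The lowest, 0, was in hypothalamus (701 of 17314 genes) and muscle (768 of 13958). The highest, 16 of 46, was in white blood cells, where 3398 of 13347 genes passed.

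Levels also differed between tissues. Among YA controls, each tissue was compared with the other 7 with animal as a block, and muscle had 35 members higher and 7 lower, where 70.1% of all genes were called (median 0.82 over members and -0.31 over all genes). White blood cells had 8 higher and 29 lower (78.2%), frontal cortex 6 and 33 (71.5%), hypothalamus 9 and 26 (73.5%), hippocampus 22 and 19 (76.1%), colon 17 and 10 (69.1%), heart 17 and 10 (65.3%) and adipose tissue 12 and 16 (67.7%). Colon and its sequencing batch cannot be told apart. In muscle Eif3j1, a subunit that sits in the mRNA entry channel, was 8.05-fold higher than in the other tissues (log2 fold change 3.01 ± 0.05, adjusted p = 4.81e-47), the scaffold Eif4g1 was 2.14 and Eif2s2 2.08 higher on the log2 scale, and Eif5a2 had a log2 fold change of -2.74. Eif4e3 was higher in heart (2.40 ± 0.09), muscle (1.82) and adipose tissue (1.45), and Eif1b in hippocampus (1.73 ± 0.13). Eif5a2 was 3.14 ± 0.15 higher in white blood cells and 2.03 higher in frontal cortex.

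Levels between paralogues were compared per length, as mean CPM per kilobase in LT young controls. The length was that of each gene's longest annotated transcript, whether or not that transcript was expressed, so ranks between paralogues depend on this choice. Eif4a2 had the highest level of its set in each of the 12 tissues, between 131 ± 12.8 in lung and 318 ± 33.4 in muscle, while Eif4a1 was lowest in hypothalamus at 43.1 ± 3.66 and highest in liver. The exon junction paralogue Eif4a3 stayed between 23.2 in hypothalamus and 43.8 in colon. Among cap-binding genes Eif4e was at 50.6 ± 6.07 in heart and 44.1 ± 4.74 in muscle. Eif4e3 was at 37.9 ± 3.86 in muscle and 37.1 ± 6.14 in adipose tissue, neighbours that differed by less than their SD, and at 5.79 ± 2.001 in kidney.

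Among the scaffolds, Eif4g1 was at 216 ± 35.97 CPM per kilobase in muscle and 41.4 in lung, and Eif4g2 was at 217 ± 39.6 in heart and 216 ± 27.8 in muscle, closer than their SD. The initiation factor Eif1 was at 819 ± 79.3 in muscle, and its paralogue Eif1b was highest in hippocampus at 65.3 ± 10.99. Eif5a2 was at 17.9 ± 3.63 in hypothalamus, 12.6 in hippocampus, 11.9 in frontal cortex and 0.264 in liver. The pairs Eif3j1 and Eif3j2, Eif1a and Eif1ax, Eif2s3x and Eif2s3y, and Eif4a3 and Eif4a3l1 resemble each other. Their sequence identity and how reads were divided between them were not checked, so their separate levels stay uncertain.

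**Figure D5:**
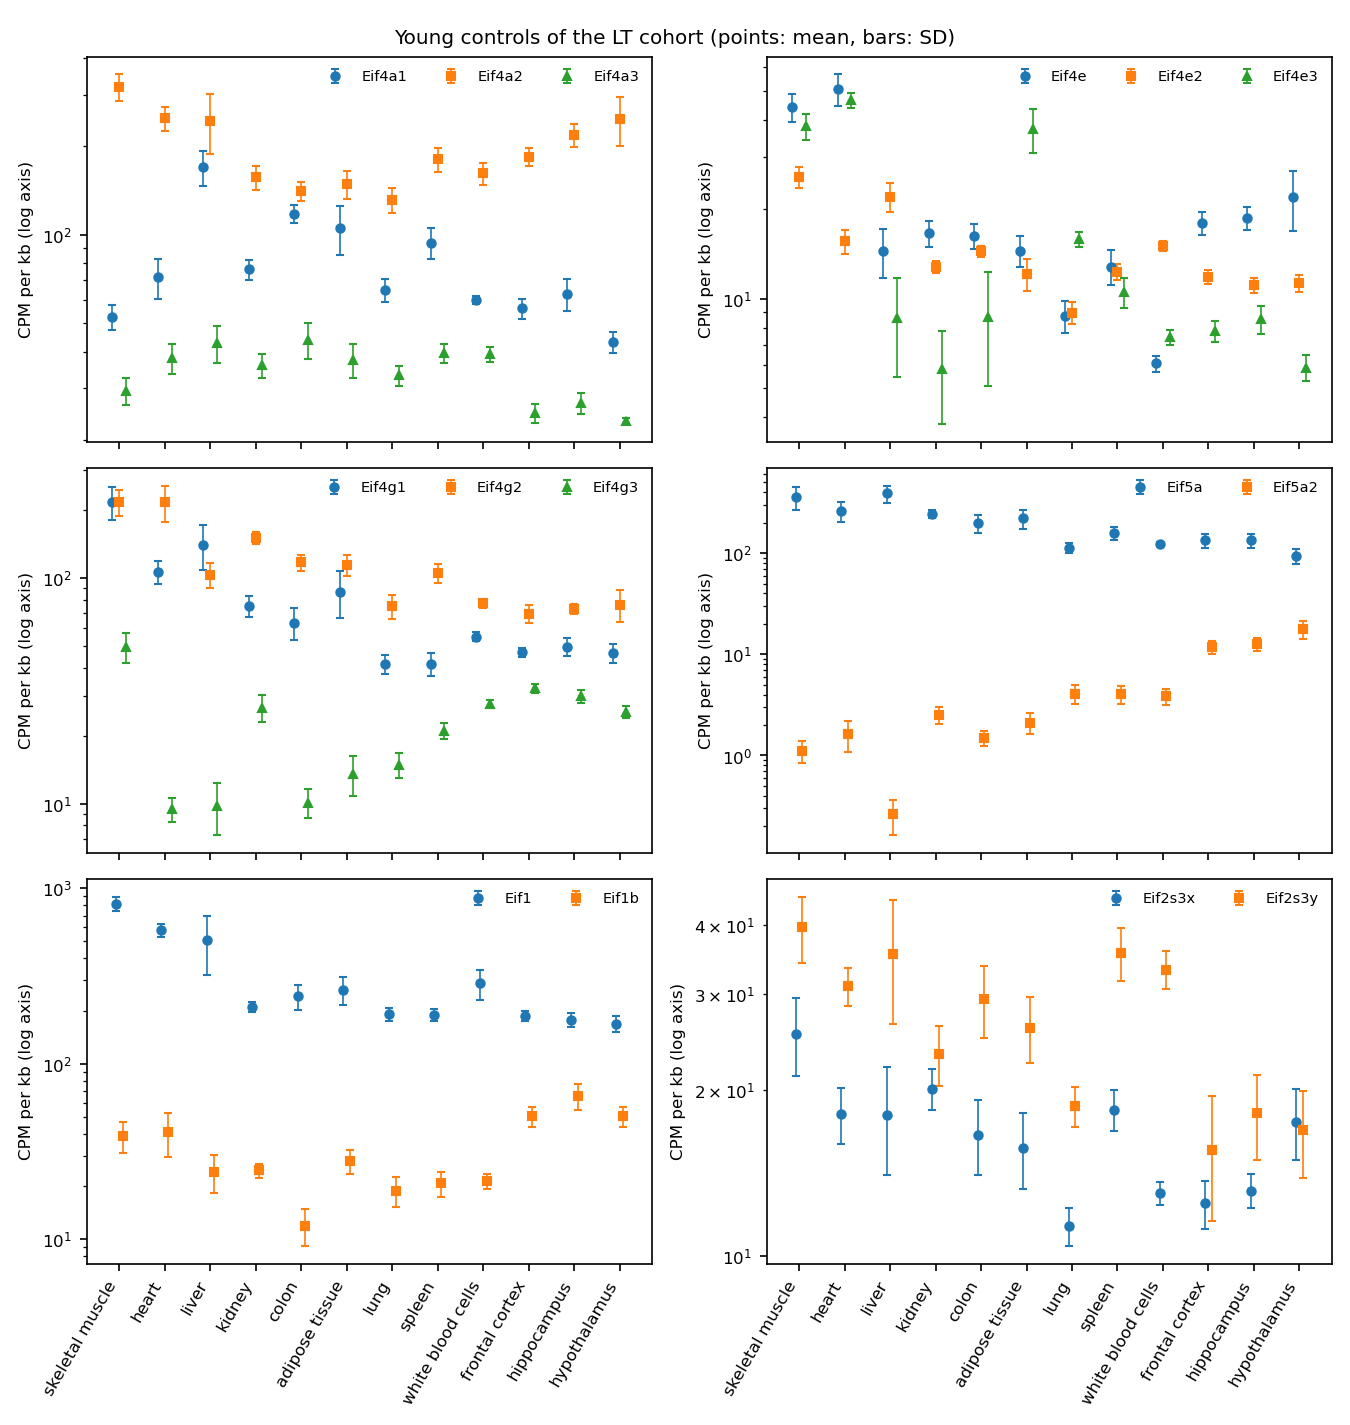
Mean CPM per kilobase (log axis) of 6 sets of initiation factor paralogues in 12 tissues of LT young controls. Eif4a2 lies above Eif4a1 and Eif4a3 in each tissue, and Eif5a2 ranges from 0.264 in liver to 17.9 in hypothalamus.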

How the data were processed

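Bulk poly(A) RNA-seq count tables of 3 cohorts were used. Per the labels' protocols, tissue was kept in RNAlater, RNA was taken with TRIzol or an RNAqueous kit, and libraries were made with a NEBNext Ultra II poly(A) kit that does not mark strand, so overlapping antisense genes cannot be told apart. The authors deposited whole counts per gene for LT and expected counts for ST and YA (7.37% and 7.21% of values not whole), which were rounded. The submitters' processing notes name GRCm39 and FastQC 0.11.9; the aligner and counter are not given in the sources used here.

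Groups come from sample titles, and 1 LT colon library whose tissue tag differs was kept under its title; 2 LT liver columns could be tied to their group but not to a sample. Each tissue was fitted over all genes and groups of a cohort with edgeR 4.0.16 in R 4.3.3 (filterByExpr, TMM, robust quasi-likelihood test), with batch as a covariate in LT, and p-values were adjusted by Benjamini-Hochberg within tissue and contrast; 0.05 was the threshold. LT liver lies in batch 3 and LT white blood cells in batch 1, and LT muscle had no fit in batch 3 alone. ST comes from 1 batch. The LT age and exenatide contrasts share aged controls, as the ST ones do. The tissue comparison used YA controls with animal as a block. CPM are TMM-scaled, separately per tissue and cohort for the comparisons of conditions. For the tissue comparison and the levels per kilobase, libraries of all tissues of those control animals were scaled together. No test crosses cohorts. Standard errors are the log2 fold change divided by the square root of F. The fit was tried on simulated counts for ST skeletal muscle and the rapamycin comparison only, with the same spread for every gene and no outlying library. The batch, interaction and tissue fits were not tried in that way.

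Alternatives were DESeq2 1.42.0, its size factors, no filter, only the conditions compared, single batches, no batch term and leaving out each animal. Removing a trend on transcript length and GC (values for 88.6% to 94.4% of genes), leaving out libraries over 35 M counts, and the fits of muscle without E13 were chosen after seeing the data.

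The members and lists were chosen with earlier results of these data known. Named genes are, per comparison, at most 8 members called in the most tissues, at most 4 of lowest adjusted p for each tissue, and the paralogue sets. Other members named beside them were chosen after their values were seen. Depth limits low genes such as Eif5a2 and Eif3j2 most. Sequences are RefSeq transcript starts on GRCm38.p6.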

Additional observations from a re-analysis of the deposited data

Results flagged for a closer look

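Of 109 groups of libraries with printed values, 9 had a library whose gap to the rest exceeded Dixon's 95% critical value, where chance flags about 1 in 20 groups. In aged control muscle of the ST cohort, E13 was the outlying library for Eif3l (45.6 CPM), Eif2a (71.4 CPM), Eif3e (153 CPM), Eif3f (45.8 CPM) and Eif3h (41.7 CPM), low for some and high for others. In the same group E23 was low for Eif4e3 (48.2 CPM). In rapamycin heart E28 was high for Eif1 (1062 CPM) and Eif2s2 (144 CPM), and in rapamycin colon E28 was high for Eif3e (353 CPM).

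In ST muscle 31.9% of the members tested, and 2843 of all 14927 genes tested, passed for an interaction term in edgeR's quasi-likelihood test. The exenatide response of these 15 members differed between animals with and without the knockdown. On the log2 scale the difference was -0.50 for Eif2s1, -0.57 for Eif2s3y, -0.57 for Eif5, -0.53 for Eif3m, -0.49 for Eif3e, -0.42 for Eif4a2, -0.33 for Eif4e2, -0.44 for Eif2s2, -0.36 for Eif2b3, -0.41 for Eif4a1, -0.32 for Eif1ax and -0.39 for Eif3a. It was 0.31 for Eif4h, 0.59 for Eif4g3 and 0.38 for Eif3d. With the length and GC trend removed, muscle had 2 calls, and the sign turned for Eif2s3y (0.0086), Eif3m (0.15), Eif3e (0.023), Eif4a2 (0.088) and Eif4h (-0.043). Without E13 muscle had 9 positive and 16 negative members, where 31% of genes were called. Leaving out each animal gave summed interaction counts of 8 to 25.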

How the results depend on the processing

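Of the 264 named results, all kept their direction and call with DESeq2, 260 with its size factors, 205 with no filter on low counts, 192 with only the conditions compared in the fit and 125 after removal of a length and GC trend. Of the LT named results, 6 kept their call in batch 3 alone, 65 lost it and 1 turned in sign. In batches 1 and 2 alone 56 kept it and 31 lost it, and without a batch term 68 and 20. Where a tissue has several batches, these within-batch fits hold fewer animals. Lost calls there do not tell fewer animals from a difference between batches. Over the fits without 1 animal, named results kept their call 2020 times and lost it 542 times. The summed member calls that moved by over 1.5 times were as follows, and the causes were not tested. Shares over all genes in these fits, and in those that leave out each animal, are not given. The counts therefore do not tell a change in the members from a change in all genes. Rapamycin had 44 with no filter and 45 with only the conditions compared, against 72. With the length and GC trend removed it had 52 higher and 8 lower calls, in place of 51 and 21. Exenatide in ST had 18, 21 and, with the trend removed, 17, against 35. Rapamycin against exenatide had 32 with DESeq2, against 21. Age in ST had 31 with the trend removed, against 55. The knockdown had 27 with DESeq2, 5 with the trend removed and 2 with no filter, against 12. Exenatide within the knockdown had 12 with only the conditions compared, against 23, and the interaction 9 there, 7 with no filter and 2 with the trend removed, against 15. Exenatide in LT had 71 with DESeq2, 15 in batch 3 alone and 6 with the trend removed, against 38, age in LT had 2 in batch 3 alone, and YA had 2 with DESeq2 and 0 with the trend removed.

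Leaving out each animal gave summed counts of 43 to 68 for rapamycin, 17 to 37 for exenatide in ST, 13 to 29 for rapamycin against exenatide, 40 to 59 for age in ST, 2 to 20 for the knockdown, 20 to 25 for exenatide within it, 8 to 25 for the interaction, 48 to 78 for age and 18 to 45 for exenatide in LT, 1 to 2 in YA and 267 to 285 for tissues.

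With the length and GC trend removed, the sign turned for Eif4a3 in rapamycin hippocampus (-0.026), for Eif4a2 (-0.031) and Eif3m (-0.11) in exenatide muscle and Eif2b4 in exenatide hippocampus (-0.029), for age in ST of Eif3m in muscle (0.16) and of Eif2s1 (-0.11) and Eif2s2 (-0.058) in heart, for Eif5a in hippocampus with exenatide within the knockdown (-0.019), for the muscle interaction of Eif2s3y (0.0086), Eif3m (0.15), Eif3e (0.023), Eif4h (-0.043) and Eif4a2 (0.088), and for Eif2b4 in aged LT adipose tissue (0.016). In batch 3 alone Eif3d in aged LT adipose tissue turned to 0.0049.

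The tissue comparison gave 279 calls with no replicate block for animal, 126 higher and 153 lower, against 276 with the block. No paired analysis was possible because each animal was in 1 condition for all other comparisons. Genes under a few CPM, such as Eif5a2 in muscle, are limited by depth.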
